A study of Mus musculus with 4 samples.

Results

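A set of 37 genes of glycolysis and of the response to low oxygen was followed in C2C12 cells. They were taken from the gene table by symbol, and for the 1 symbol that occurred more than once, Aldoa, the identifier with most counts was used. All 37 were found among the 52636 genes of the table, and all 37 passed the filter on low counts that left 18998 genes for testing. C2C12 is a mouse myoblast line whose cells can fuse into myotubes. Over up to 8 days in adipogenic medium the cells received 50 µM sesaminol, a sesame lignan, or none. Polyadenylated RNA was sequenced from 2 libraries of sesaminol-treated cells (sesaminol 1 and 2) and 2 of control cells in the same medium (control 1 and 2). All libraries come from this same line. Whether replicate libraries are separate cultures is not stated, so the p-values reflect the spread between these 4 samples alone, which could be technical.

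Glycolysis turns glucose into pyruvate, which lactate dehydrogenase reduces to lactate when it is not burned in mitochondria. Hypoxia-inducible factor (HIF) is a dimer whose alpha subunit is marked for destruction by oxygen-dependent prolyl hydroxylases (the EGLN enzymes). When oxygen is short the subunit persists, binds the core letters ACGTG or GCGTG in hypoxia response elements, and raises the transcription of glycolytic enzymes, angiogenic peptides, pH regulators and collagen hydroxylases. In skeletal muscle, differentiation also replaces several widely expressed glycolytic enzymes by muscle isoenzymes encoded by other genes.

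The promoters of 6 of the 37 genes are printed as examples from genes that rose, did not pass the test or fell. So few cannot show how these letters were spread over such genes. Each run gives the 250 bases before the RefSeq start (GRCm38.p6), 5′ to 3′ on the gene's strand, and none of these bases lies in an annotated exon. Capitals mark ACGTG or GCGTG, read on either strand as CACGT or CACGC. Hk2, Adm and P4ha2 rose with sesaminol, Ldha and Egln3 did not pass the test, and Car12 fell.
Hk2, chr6:82774455-82774704, minus strand: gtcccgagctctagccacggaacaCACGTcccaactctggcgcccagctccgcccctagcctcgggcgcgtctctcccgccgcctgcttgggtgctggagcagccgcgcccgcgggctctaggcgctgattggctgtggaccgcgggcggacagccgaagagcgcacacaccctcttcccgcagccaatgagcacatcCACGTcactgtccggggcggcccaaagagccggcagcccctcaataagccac
Adm, chr7:110627407-110627656, plus strand: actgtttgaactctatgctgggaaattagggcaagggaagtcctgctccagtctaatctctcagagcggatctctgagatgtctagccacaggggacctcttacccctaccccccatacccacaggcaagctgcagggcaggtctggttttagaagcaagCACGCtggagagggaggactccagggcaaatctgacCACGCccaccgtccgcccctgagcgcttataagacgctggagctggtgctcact
P4ha2, chr11:54100674-54100923, plus strand: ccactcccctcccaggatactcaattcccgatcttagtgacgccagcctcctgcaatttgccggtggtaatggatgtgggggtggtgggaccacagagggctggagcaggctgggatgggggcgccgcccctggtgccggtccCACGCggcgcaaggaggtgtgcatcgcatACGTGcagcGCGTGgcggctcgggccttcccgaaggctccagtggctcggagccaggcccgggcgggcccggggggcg
Ldha, chr7:46845554-46845803, plus strand: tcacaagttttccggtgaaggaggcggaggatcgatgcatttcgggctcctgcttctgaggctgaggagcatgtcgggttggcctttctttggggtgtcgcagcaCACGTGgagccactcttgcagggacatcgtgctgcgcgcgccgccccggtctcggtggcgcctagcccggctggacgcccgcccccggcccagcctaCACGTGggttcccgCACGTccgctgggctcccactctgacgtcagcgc
Egln3, chr12:54203875-54204124, minus strand: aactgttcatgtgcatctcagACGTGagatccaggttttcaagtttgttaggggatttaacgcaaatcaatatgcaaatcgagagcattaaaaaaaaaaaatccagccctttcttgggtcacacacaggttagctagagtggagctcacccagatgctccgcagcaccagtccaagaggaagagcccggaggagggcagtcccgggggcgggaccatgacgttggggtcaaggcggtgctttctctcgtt
Car12, chr9:66713436-66713685, plus strand: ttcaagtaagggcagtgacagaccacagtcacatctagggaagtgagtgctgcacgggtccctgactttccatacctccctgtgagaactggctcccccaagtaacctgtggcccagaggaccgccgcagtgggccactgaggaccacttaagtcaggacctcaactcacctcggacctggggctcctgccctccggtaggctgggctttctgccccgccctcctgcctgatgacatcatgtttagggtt

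The runs of Hk2 and Adm hold 2 matches each, that of P4ha2 3, that of Ldha 5 and that of Egln3 1, while that of Car12 holds none. In Ldha the run CACGTG occurs at 2 places and reads as a match on both strands, so overlapping matches are counted separately. Over the full windows of 300 bases, which add 50 bases after the start, 30 of the 34 member genes in the RefSeq table (88.2%) held a match. The 4 without one were Gpi1 and Tpi1, which did not pass the test, Eno2, which rose, and Car12, which fell. Epas1, Plod2 and Ndrg1 had no entry. A match was found in 10 of the 11 listed genes that rose (90.9%) and in 20 of the 23 that did not rise (87.0%). Of the genes tested that had an entry, 64.0% held a match, as did 46.7% of all genes in the table. With ACGTG alone the shares were 64.7% of the 34 member genes, 27.8% of genes tested and 21.8% of all genes in the table. ACGTG was found in 72.7% of the listed genes that rose and in 60.9% of those that did not rise. No test was made of these shares.

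Total counts were 15807638 and 24362899 in sesaminol 1 and 2, against 10283135 and 14083165 in control 1 and 2. Sesaminol 2 stood apart in its mitochondrially encoded counts, which made up 1.44% of its total, against 2.95% to 3.36% in the other 3 libraries. Skeletal muscle markers were lower in both sesaminol libraries. Their 8 genes summed to 6573 and 4843 CPM (a gene's counts relative to library size, with TMM scaling) in sesaminol 1 and 2, against 12095 and 12080 CPM in control 1 and 2, and 6 of the 8 fell. The fat cell markers were low in all 4 libraries, and 0 of the 4 that were tested passed. Their 7 genes summed to 24.4 and 18.0 CPM with sesaminol and 33.2 and 32.2 CPM in controls, and Adipoq, which encodes adiponectin, was at most 0.876 CPM. Endothelial markers summed to 5.16 and 7.83 CPM with sesaminol and 7.15 and 5.55 CPM in controls. For macrophage markers the sums were 25.4 and 31.9 CPM against 19.2 and 15.5 CPM, with Cd68 the only gene of the 5 to rise. Fibroblast markers summed to 1690 and 1464 CPM against 2582 and 2868 CPM, and 1 of 5 genes, Col1a1, fell. Col1a2 was below both controls in each sesaminol library without passing, at 854.5 and 824.6 CPM against 1438 and 1656 CPM. Dcn and Pdgfra overlapped between groups, and Thy1, with at most 2 counts in a library, was not tested. Of the 5 erythroid markers, the globin genes Hbb-bs, Hbb-bt and Hba-a2 had 0 counts in every library. Another globin gene, Hba-a1, had 16 and 6 counts with sesaminol and 12 and 12 in controls. Alas2 had 8 and 2 counts with sesaminol and 6 and 9 in controls. A change in bulk RNA does not separate fewer cells of a type from less RNA per cell.

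Of the 37 genes, 12 rose with sesaminol and 1 fell (quasi-likelihood test in edgeR, with an adjusted p under 0.05 by the Benjamini-Hochberg method over all genes tested). Over the 18998 genes tested, 2.72% rose and 3.24% fell. The 12 that rose were Hk2, Aldoc and Eno2 among the glycolytic enzymes, Pfkfb3, Pdk1 and Slc16a3 among the genes that steer glycolytic flux, and Egln1, Adm, Car9, Ndrg1, Higd1a and P4ha2 among the hypoxia response genes. Car12 fell. The median log2 fold change was 0.65 over the 37 genes and 0.02 over all genes tested, and 34 of the 37 had a fold change above 0. Both sesaminol libraries lay above both controls for 24 of the 37 genes and below them for 1, against 24.2% and 22.8% of all genes tested. The remaining 24 genes did not pass the test, with log2 fold changes of −0.05 to 0.94 and a median of 0.37. In 12 of these 24 both sesaminol libraries lay above both controls, and in 0 below them (24.2% and 22.8% over all genes tested).

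**Figure D1:**
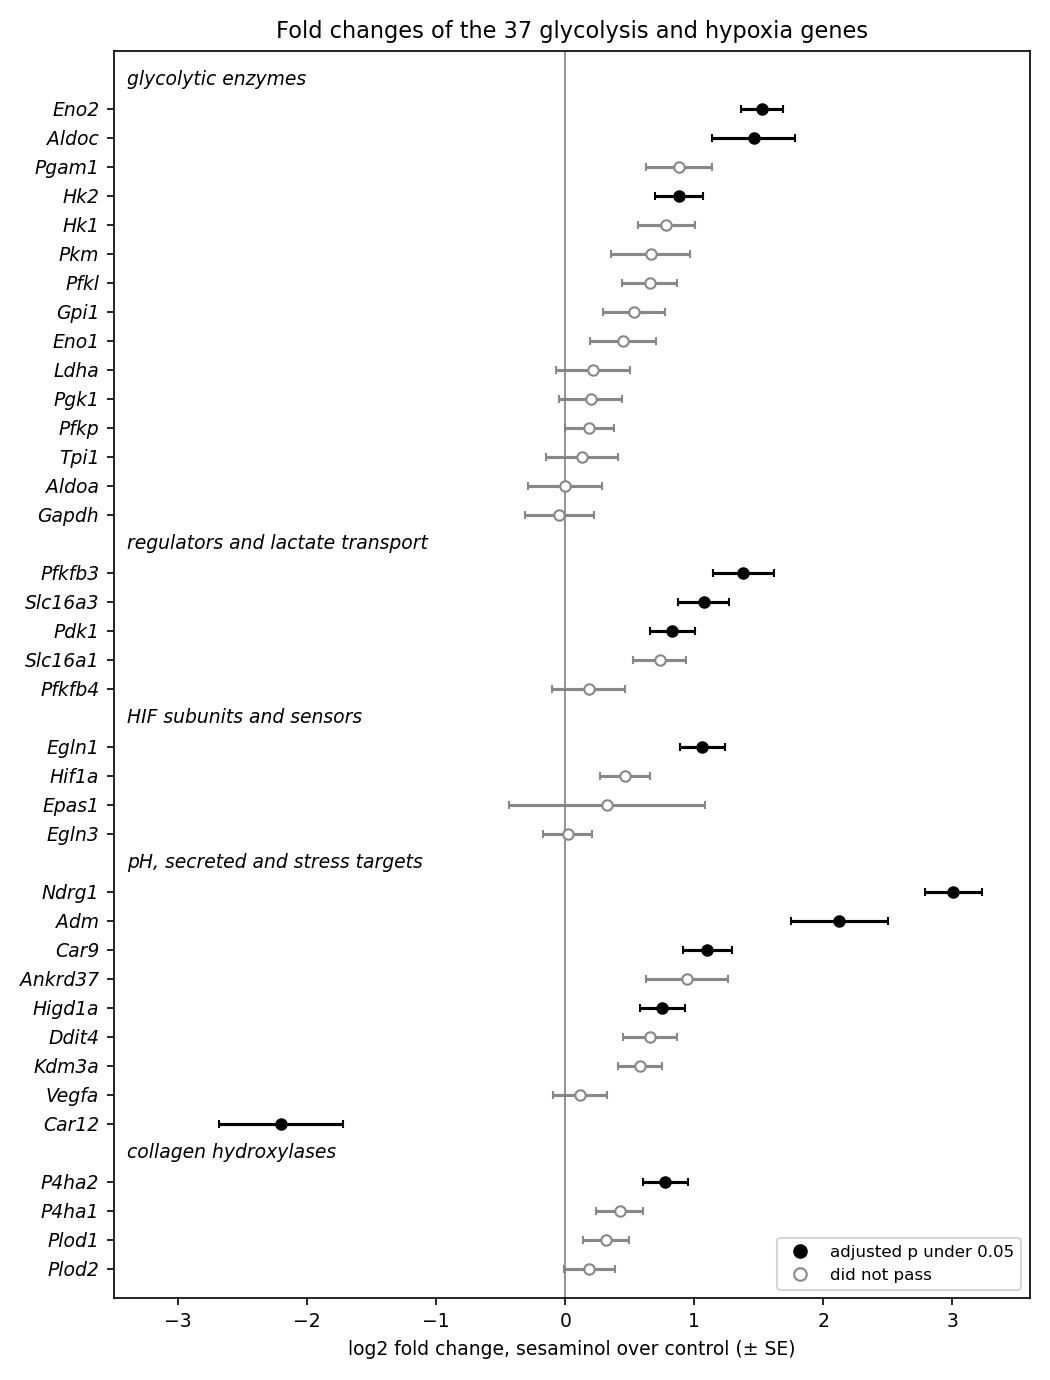
Log2 fold change (sesaminol over control, edgeR) of the 37 genes, by role group, with bars of 1 standard error; filled points passed the adjusted threshold of 0.05. Ndrg1 lies farthest to the right at 3.01 and Car12 farthest to the left at −2.21.

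The number of calls depended on the libraries included, over all genes tested as well as among the 37. It was low over all genes without either control and high without either sesaminol library. The median log2 fold change of the 37 was 0.39 without sesaminol 1 and 0.82 without sesaminol 2, against 0.005 and −0.02 over all genes. Without control 1 and control 2 it was 0.67 and 0.61, against 0.04 and 0.02. Without control 1 the test called 3 members higher (Eno2, Adm and Ndrg1), and without control 2 it called 4 (these and Pfkfb3). Without sesaminol 1 it called 16 higher and 2 lower, and without sesaminol 2 it called 28 higher and 1 lower. In these fits the lone library is assumed to vary like the other group. Car12 was not called without either control.

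Among the 15 glycolytic enzymes, Hk2, Eno2 and Aldoc rose, while most steps of the chain did not pass the test. The counts were 3 higher, 0 lower and 12 not passed (median log2 fold change 0.53). Hk2 (ENSMUSG00000000628, GRCm38 chromosome 6, 82725025 to 82774454) encodes hexokinase 2, the hexokinase typical of insulin-responsive tissues such as muscle. It stood at 223 and 231 CPM in sesaminol 1 and 2, against 108 and 139 CPM in control 1 and 2. Both sesaminol libraries were above both controls, and the log2 fold change was 0.88 ± 0.19 (SE; edgeR adjusted p = 0.0271).

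Eno2 (ENSMUSG00000004267, chromosome 6, 124760053 to 124769673) encodes gamma-enolase, best known from neurons. Its level was 113 and 112 CPM with sesaminol, against 40.7 and 37.8 CPM in controls. The libraries of each group lay close together and the groups far apart, with a log2 fold change of 1.52 ± 0.16 (SE; edgeR adjusted p = 0.00154). Aldoc (ENSMUSG00000017390, chromosome 11, 78322968 to 78327781) encodes aldolase C, the brain isoenzyme. It reached 14.6 and 9.43 CPM with sesaminol, against 4.77 and 3.94 CPM in controls. The sesaminol libraries differed from each other but did not overlap with the controls, and the log2 fold change was 1.46 ± 0.32 (SE; edgeR adjusted p = 0.0316, and 0.0808 by limma-voom).

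Pkm, which encodes a pyruvate kinase, had the highest mean CPM of the 15 enzymes. It stood at 4114 and 2743 CPM in sesaminol 1 and 2, against 2335 and 1998 CPM in control 1 and 2. The groups did not overlap, but sesaminol 1 was far above sesaminol 2, and the log2 fold change of 0.66 ± 0.31 (SE) did not pass (edgeR adjusted p = 0.304). Also without a call were Hk1, Gpi1, Pfkl, Pfkp, Aldoa, Tpi1, Gapdh, Pgk1, Pgam1, Eno1 and Ldha, the remaining steps of the chain down to lactate. Their log2 fold changes ran from −0.05 (Gapdh) to 0.88 (Pgam1). Hk1 (0.78 ± 0.22, edgeR adjusted p = 0.0813) and Pgam1 (0.88 ± 0.26, edgeR adjusted p = 0.0912) came nearest to the threshold. Aldoa, the muscle aldolase, differed little between groups, at 2098 and 1425 CPM with sesaminol and 1932 and 1595 CPM in controls.

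The sesaminol libraries themselves differed in this chain. Of the 15 enzymes, 14 were higher in sesaminol 1 than in sesaminol 2, at a median ratio of 1.47, against a ratio of 0.996 over the 18852 genes tested with a count in every library. Within the controls, 14 of 15 were higher in control 1, at a median ratio of 1.21. Without sesaminol 2, 12 of the 15 were called higher, and without sesaminol 1, 5 were, and Gapdh was called lower (edgeR adjusted p = 0.00378). Hk2 lost its call without control 1 (edgeR adjusted p = 0.609) or control 2 (0.160), and so did Aldoc (0.0839 and 0.224), while Eno2 was called in all 4 fits.

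The reads of several of these enzymes could not be assigned with confidence. The mouse genome holds copies of their messages, most of them processed pseudogenes. Genes that share at least 10% of the 50-base words of a member's longest protein-coding transcript are called near-identical copies here. The share differed widely between copies. It was 18.6% for the Gpi1 copy and 25.9% for the Pkm copy, against 52.8% and 70.5% for the Eno1 copies. Gapdh stood at 345 and 193 CPM with sesaminol and 301 and 254 CPM in controls. Its 71 copies together held 1455 and 588 CPM with sesaminol and 1313 and 1103 CPM in controls, several times the gene's own count, most of it in Gm13394 (named after its values were seen). Eno1 stood at 677 and 443 CPM with sesaminol and 459 and 362 CPM in controls. Its copies Gm4735 and Eno1b, likewise named afterwards, together held 1883 and 905 CPM with sesaminol and 1587 and 1098 CPM in controls. Pgam1, at 172 and 112 CPM with sesaminol and 92.6 and 61.8 CPM in controls, had copies with 272 and 214 CPM and with 126 and 106 CPM. For Gpi1, Pgk1 and Pkm the copies held between 0.091 and 0.404 times the gene's own CPM in each library.

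Adding the copies to their genes changed 1 call. Pgam1 then rose (log2 fold change 1.00 ± 0.23, SE; edgeR adjusted p = 0.0351), which made 13 members higher. The summed log2 fold changes were −0.20 for Gapdh (edgeR adjusted p = 0.867) and 0.16 for Eno1 (edgeR adjusted p = 0.899), and neither passed.

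**Figure D2:**
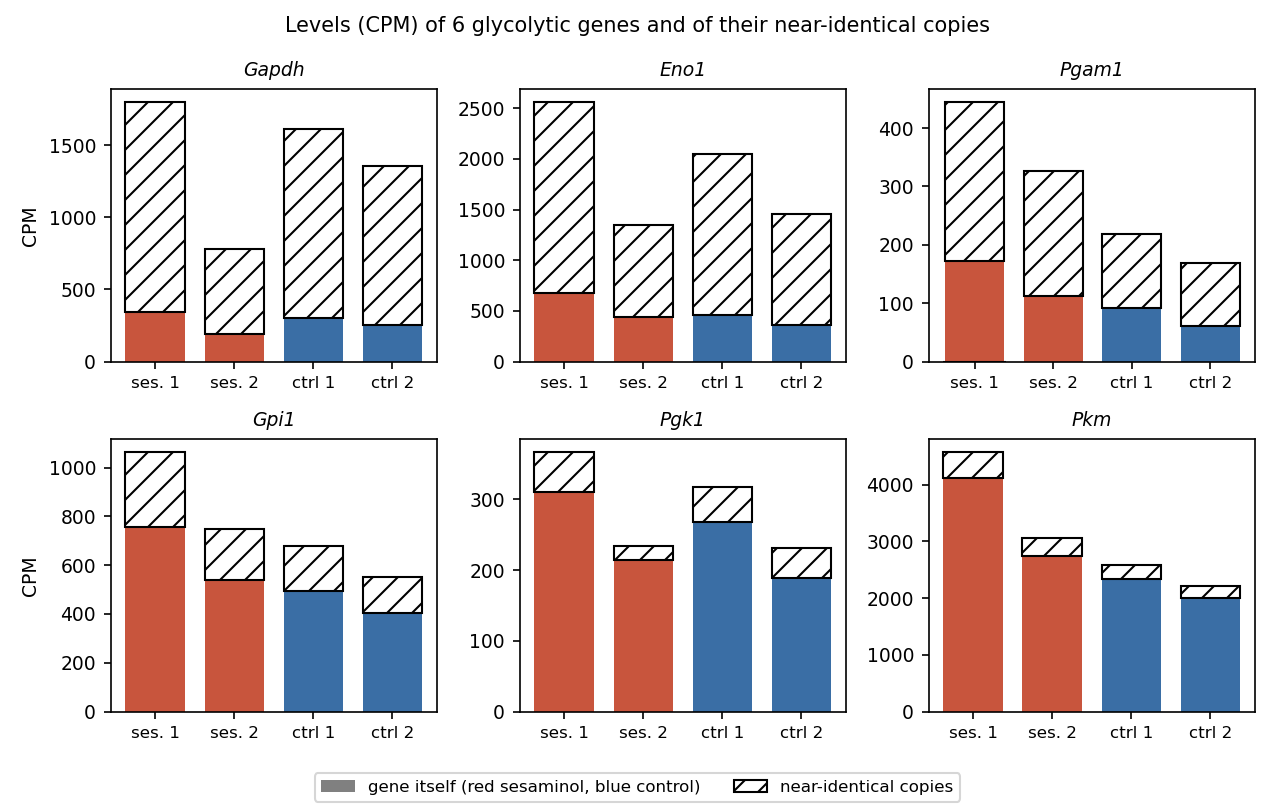
Level in CPM of 6 glycolytic genes (solid; red for sesaminol, blue for control) and of their near-identical copies (hatched, stacked on top), by library. For Gapdh, Eno1 and Pgam1 the hatched part exceeds the solid part in all 4 libraries, and for Gpi1, Pgk1 and Pkm it is smaller.

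In phosphofructokinase, phosphoglycerate mutase and enolase, steps shared by several isoenzymes, the mix differed between the groups. Levels of different genes are compared here per kilobase of exon, as each gene's share of the CPM per kilobase summed over its family. Pfkl, the liver-type phosphofructokinase, made up 38.8% and 33.3% of its family in sesaminol 1 and 2, against 15.4% and 13.2% in control 1 and 2. Pfkm, the muscle type, which is not among the 37 genes, made up 52.0% and 58.9% with sesaminol and 80.1% and 82.0% in controls. The muscle type led in every library, by less in the sesaminol libraries. With the longest transcript as the length, Pfkl led in sesaminol 1 (48.3% against 41.9% for Pfkm).

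In phosphoglycerate mutase the order of the isoenzymes turned round. Pgam1, the widely expressed form, made up 63.1% and 66.9% of its pair with sesaminol, against 33.3% and 29.1% in controls, the rest being the muscle form Pgam2. With copies added to Pgam1 its shares were 81.5% and 85.5% with sesaminol and 54.0% and 52.7% in controls, so that it led in all 4 libraries. Among the enolases, Eno2 made up 5.67% and 8.96% with sesaminol and 1.25% and 1.36% in controls, and Eno1 29.6% and 30.9% against 12.3% and 11.5%. Eno3, the muscle enolase, held 64.7% and 60.2% with sesaminol and 86.5% and 87.2% in controls. With copies added to Eno1 the share of Eno3 was 35.5% and 36.9% with sesaminol and 60.7% and 64.7% in controls. The direction of each of these differences was the same with copies summed, and with the longest transcript as the length.

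The muscle isoenzymes of these 3 families fell. Pfkm stood at 203 and 197 CPM with sesaminol, against 480 and 463 CPM in controls (log2 fold change −1.24 ± 0.18, SE; edgeR adjusted p = 0.00592). Eno3 stood at 478 and 279 CPM with sesaminol, against 1044 and 892 CPM in controls (−1.36 ± 0.28; edgeR adjusted p = 0.0255). Pgam2 stood at 42.7 and 23.5 CPM with sesaminol, against 78.7 and 63.9 CPM in controls (−1.11 ± 0.27; edgeR adjusted p = 0.0440). All 3 were lower in both sesaminol libraries than in either control. The summed muscle markers given above moved the same way, and their part in these shares was not tested. Without control 1 none of the 3 was called (edgeR adjusted p = 0.0690 for Pfkm, 0.179 for Eno3 and 0.128 for Pgam2), and without control 2 only Pgam2 was (0.0661 for Pfkm and 0.102 for Eno3).

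**Figure D3:**
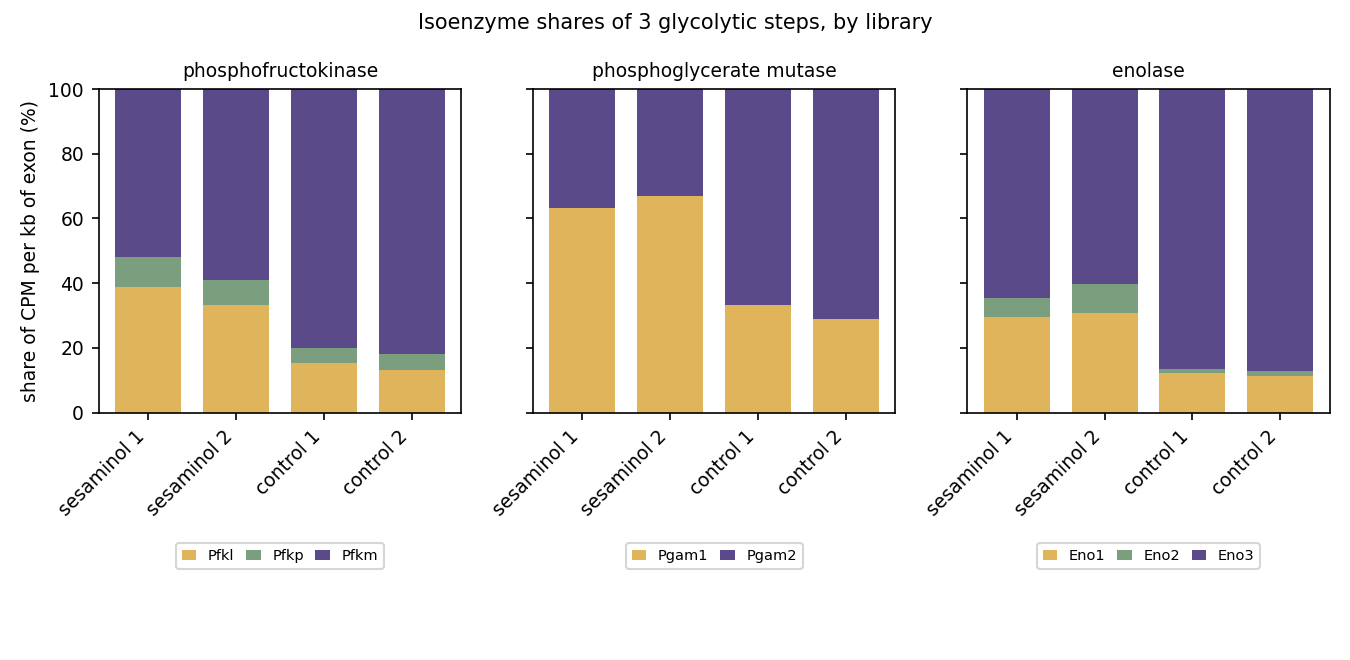
Share of each isoenzyme in its family's CPM per kilobase of exon (%), by library, for phosphofructokinase, phosphoglycerate mutase and enolase. The muscle forms Pfkm, Pgam2 and Eno3 (top segments) take up less of each bar in the 2 sesaminol libraries than in the 2 controls.

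Other families showed smaller shifts or none. Ldha made up 98.5% to 99.1% of lactate dehydrogenase with sesaminol and 97.5% to 98.5% in controls. Aldoc stayed a trace beside Aldoa, at 0.617% and 0.587% of aldolase with sesaminol and 0.220% and 0.220% in controls. Hk2 made up 43.7% and 53.1% of hexokinase with sesaminol and 41.3% and 51.3% in controls, so the mix with Hk1 did not separate the groups although the Hk2 level did.

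Of the 5 genes that steer flux around glycolysis or carry its end product, 3 rose and 0 fell (median log2 fold change 0.83). Pfkfb3 (ENSMUSG00000026773, chromosome 2, 11471433 to 11554077) encodes the enzyme that makes the strongest allosteric activator of phosphofructokinase. It stood at 17.9 and 23.3 CPM with sesaminol, against 7.35 and 8.47 CPM in controls, with no overlap (log2 fold change 1.38 ± 0.24, SE; edgeR adjusted p = 0.0105). Pdk1 (ENSMUSG00000006494, chromosome 2, 71873224 to 71903858) encodes a kinase that shuts pyruvate dehydrogenase and so keeps pyruvate out of the mitochondrial cycle. Its level was 174 and 164 CPM with sesaminol, against 104 and 86.5 CPM in controls, again with no overlap (0.83 ± 0.17; edgeR adjusted p = 0.0250).

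Slc16a3 (ENSMUSG00000025161, chromosome 11, 120948480 to 120960868) encodes the monocarboxylate transporter that exports lactate from glycolytic cells. It stood at 109 and 78.4 CPM with sesaminol, against 47.5 and 41.5 CPM in controls (log2 fold change 1.07 ± 0.20, SE; edgeR adjusted p = 0.0151). Slc16a1, the more widely expressed transporter, stood at 193 and 132 CPM with sesaminol and 96.7 and 99.2 CPM in controls. Both transporters lay above the controls in each sesaminol library, but Slc16a1 did not pass (0.73 ± 0.21; edgeR adjusted p = 0.0813). Pfkfb4, a relative of Pfkfb3, overlapped between groups, with 25.2 and 13.9 CPM against 15.9 and 18.3 CPM. Without control 1 none of the 5 was called, the edgeR adjusted p being 0.0650 for Pfkfb3, 0.186 for Pdk1 and 0.0503 for Slc16a3, and without control 2 only Pfkfb3 was (0.538 for Pdk1, 0.162 for Slc16a3). Without sesaminol 2 all 5 were called higher.

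In the oxygen-sensing group a prolyl hydroxylase rose and the HIF alpha subunits did not pass the test. Egln1 (ENSMUSG00000031987, chromosome 8, 124908587 to 124949324) encodes the main oxygen sensor acting on HIF and is itself a known HIF target. It stood at 148 and 174 CPM in sesaminol 1 and 2, against 82.3 and 72.0 CPM in control 1 and 2. Both sesaminol libraries were well above the controls (log2 fold change 1.06 ± 0.17, SE; edgeR adjusted p = 0.00878). Egln3, another hydroxylase of the family, is also induced by hypoxia in many cells. It stood at 124 and 170 CPM with sesaminol and 143 and 148 CPM in controls. The controls lay between the sesaminol libraries (0.02 ± 0.19; edgeR adjusted p = 0.982). Per kilobase of exon, Egln1 made up 35.7% and 35.5% of the EGLN family with sesaminol and 22.6% and 20.04% in controls, and Egln3 40.4% and 46.8% against 52.8% and 55.7%.

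Hif1a, the oxygen-regulated subunit found in most cells, stood at 219 and 188 CPM with sesaminol and 130 and 165 CPM in controls. The groups did not overlap, but the log2 fold change of 0.46 ± 0.19 (SE) did not pass (edgeR adjusted p = 0.243), and Hif1a too has an antisense neighbour with a similar count (Gm15283). Epas1, which encodes a related HIF alpha subunit, was near the detection limit, with 7 and 36 counts with sesaminol and 6 and 12 in controls. That equals 0.469 and 1.34 CPM with sesaminol and 0.596 and 0.876 CPM in controls, and the groups overlapped (0.32 ± 0.76; edgeR adjusted p = 0.907). Hif1a made up at least 98.9% of the 3 HIF alpha genes per kilobase in every library. These are message levels, and HIF alpha is controlled chiefly at the protein level, which was not measured. Egln1 was not called without control 1 (edgeR adjusted p = 0.0701) or control 2 (0.199), and Hif1a was called without sesaminol 2 (0.00244).

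The 9 secreted, pH and stress genes held the largest changes among the 37, with 4 higher and 1 lower (median log2 fold change 0.75). Ndrg1 (ENSMUSG00000005125, chromosome 15, 66929318 to 66969640) encodes a stress-responsive cytosolic protein that is induced by hypoxia and iron chelation in many cell types. It stood at 890 and 1019 CPM in sesaminol 1 and 2, against 113 and 124 CPM in control 1 and 2. The groups were separated several-fold, with a log2 fold change of 3.01 ± 0.22 (SE; edgeR adjusted p = 0.00054). Its antisense neighbour Gm17035 held 66.5% of its count, and without a stated strand setting the reads of both genes cannot be told apart.

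Adm (ENSMUSG00000030790, chromosome 7, 110627661 to 110629820) encodes adrenomedullin, a vasodilator peptide. Its level was 13.7 and 18.3 CPM with sesaminol, against 5.16 and 2.34 CPM in controls. The groups did not overlap (log2 fold change 2.12 ± 0.38, SE; edgeR adjusted p = 0.0125), and the fold of 4.36 was 6.79 without control 1. Its antisense neighbour Gm28863 held 206 and 496 counts with sesaminol and 52 and 36 in controls, 101.3% of the count of Adm in all. The exons of the pair do not touch in the annotation used, and whether both genes were given the same reads was not tested. Vegfa, the main angiogenic growth factor of the HIF response, did not pass. It stood at 363 and 282 CPM with sesaminol and 266 and 329 CPM in controls, with overlap (0.12, edgeR adjusted p = 0.867).

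The carbonic anhydrases, membrane enzymes with an outward-facing active site that turn carbon dioxide into bicarbonate and acid, went in opposite directions. Car9 (ENSMUSG00000028463, chromosome 4, 43506966 to 43513729) stood at 155 and 116 CPM with sesaminol, against 64.2 and 61.9 CPM in controls. Both sesaminol libraries were above the controls (log2 fold change 1.10 ± 0.19, SE; edgeR adjusted p = 0.0107), and its antisense neighbour Gm12454 held 33.1% of its count. Car12 (ENSMUSG00000032373, chromosome 9, 66713686 to 66766845) had 12 and 52 counts with sesaminol, against 66 and 90 in controls. That equals 0.804 and 1.94 CPM with sesaminol and 6.56 and 6.57 CPM in controls. It was low in all libraries and lower with sesaminol (−2.21 ± 0.48; edgeR adjusted p = 0.03, and 0.0581 with library size alone as scaling), and its 4.62-fold lower level was 8.05-fold lower without sesaminol 2. Per kilobase of exon, Car9 exceeded Car12 in every library, at 67.3 and 50.2 CPM per kilobase against 0.106 and 0.255 with sesaminol, and 27.8 and 26.9 against 0.863 and 0.865 in controls.

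Higd1a (ENSMUSG00000038412, chromosome 9, 121848563 to 121858362) encodes a small mitochondrial inner membrane protein induced by hypoxia. It stood at 57.0 and 47.0 CPM with sesaminol, against 32.4 and 29.4 CPM in controls (log2 fold change 0.75 ± 0.18, SE; edgeR adjusted p = 0.0390, and 0.0503 by limma-voom). Ankrd37, Ddit4 and Kdm3a, which encode an ankyrin repeat protein, an inhibitor of mTORC1 and a histone demethylase, were higher in both sesaminol libraries than in either control but did not pass. Their log2 fold changes were 0.94 (edgeR adjusted p = 0.146), 0.66 (0.126) and 0.58 (0.0910). Ankrd37 overlaps Ufsp2, which held 329% of its count, and Lrp2bp, which held 66.1%. Ndrg1 and Adm were called whichever library was left out. Car9, Higd1a and Car12 were not called without control 1 (edgeR adjusted p = 0.0796, 0.238 and 0.0951) or control 2 (0.119, 0.457 and 0.129).

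**Figure D4:**
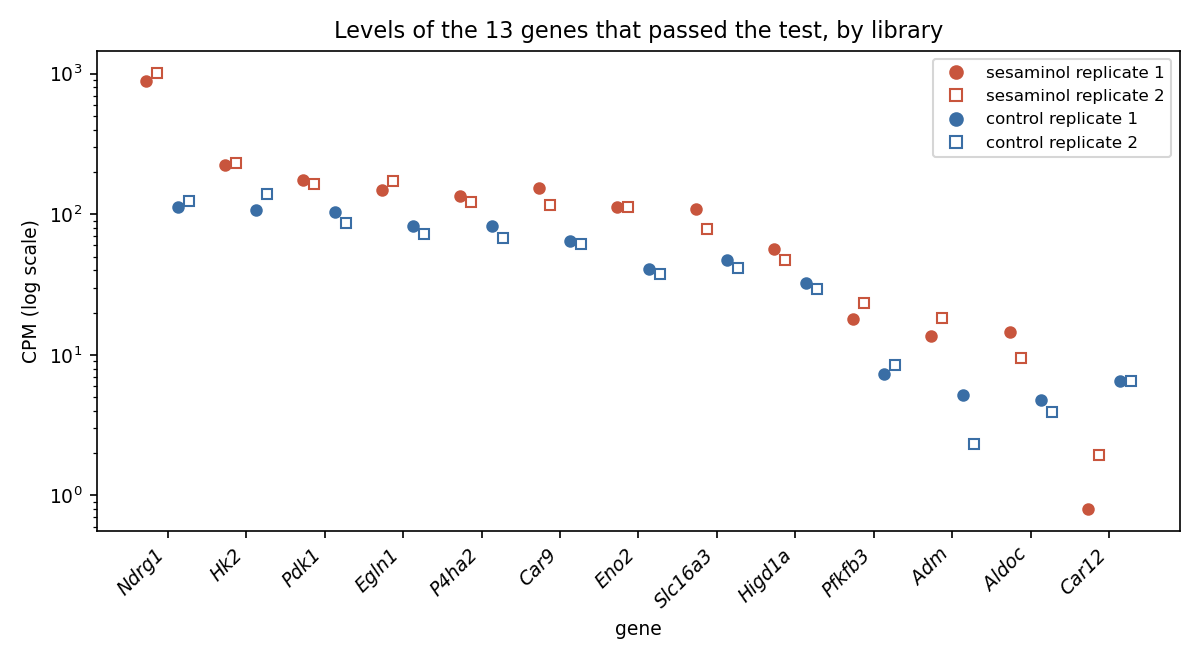
Level in CPM (log axis) in each library of the 13 genes past the adjusted threshold, sesaminol in red and control in blue. The sesaminol points of 12 genes lie above both control points, and those of Car12 lie below them.

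Of the 4 collagen hydroxylases, 1 rose and 0 fell (median log2 fold change 0.37). These enzymes hydroxylate proline or lysine in procollagen, and like the EGLN enzymes they need oxygen and iron. P4ha2 (ENSMUSG00000018906, chromosome 11, 54100095 to 54131665) encodes a catalytic subunit of the collagen prolyl hydroxylase. It stood at 135 and 123 CPM with sesaminol, against 82.6 and 68.4 CPM in controls, with no overlap (0.77 ± 0.17, SE; edgeR adjusted p = 0.0330). P4ha1, the more abundant subunit per kilobase and in CPM, stood at 299 and 302 CPM with sesaminol and 242 and 207 CPM in controls. It was higher in both sesaminol libraries without passing (0.42, edgeR adjusted p = 0.265). The lysyl hydroxylase genes Plod1 and Plod2 did not pass, at log2 fold changes of 0.32 and 0.19. P4ha2 was not called without control 1 (edgeR adjusted p = 0.195) or control 2 (0.595), and without sesaminol 2 P4ha1 and Plod1 were called as well.

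P4ha3, the scarcest of the 3 subunit genes and not among the 37, fell. It stood at 7.63 and 6.41 CPM with sesaminol, against 16.5 and 18.3 CPM in controls (log2 fold change −1.31 ± 0.24, SE; edgeR adjusted p = 0.0133, but 0.0527 without control 1 and 0.145 without control 2). Its share of the family per kilobase was 2.52% and 2.15% with sesaminol and 6.80% and 8.69% in controls. It was the only called gene among the 10 collagen hydroxylases and partners outside the 37.

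Genes of the same pathways outside the 37 were read from the same fit. Like the 37, these further lists were chosen with earlier results of these data known. Of 41 further genes of oxygen sensing or known as HIF targets, 40 were tested, of which 11 rose and 0 fell, with a median log2 fold change of 0.49. Over all genes tested 2.72% rose and 3.24% fell, with a median of 0.02. The 4 with the smallest adjusted p act in glucose entry, protein oxidation, energy balance and transcription. Ero1l, an oxidase that forms disulfide bonds in the endoplasmic reticulum, stood at 174 and 184 CPM with sesaminol, against 30.0 and 43.1 CPM in controls (log2 fold change 2.29 ± 0.21, SE; edgeR adjusted p = 0.000941). Slc2a1, the basal glucose transporter gene, stood at 261 and 345 CPM with sesaminol, against 89.2 and 75.7 CPM in controls (1.88 ± 0.21; edgeR adjusted p = 0.00168). Its antisense neighbour Gm12868 held 65.9% of its count.

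Ak4, a mitochondrial adenylate kinase gene, stood at 23.3 and 32.7 CPM with sesaminol, against 7.75 and 6.14 CPM in controls (log2 fold change 2.02 ± 0.25, SE; edgeR adjusted p = 0.0025). Mxi1, which encodes a repressor that competes with MYC for its partner, stood at 73.8 and 93.5 CPM with sesaminol, against 29.0 and 32.4 CPM in controls (1.45 ± 0.18; edgeR adjusted p = 0.0028). In all 4 genes both sesaminol libraries were far above the controls, and the calls held in each fit with a library left out. Others that rose, named after their values were seen, included Bnip3, Bnip3l, Kdm4b, Hilpda, Hmox1 and Angptl4, with log2 fold changes of 0.83 to 1.32. Bnip3, whose product marks mitochondria for removal, overlaps the antisense gene Gm45507, which held 86.9% of its count. Without control 1 or control 2, 5 genes of this list rose (Ak4, Bnip3, Ero1l, Mxi1 and Slc2a1), while 18 rose and 5 fell without sesaminol 1, and 18 rose and 1 fell without sesaminol 2.

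The remaining lists showed few calls. Of 13 tested genes among 19 further glycolytic isoenzymes and entry or exit steps, 0 rose and 3 fell, namely the muscle isoenzymes described above. Of the 10 genes of pyruvate dehydrogenase and its regulators, edgeR, DESeq2 and limma-voom each called 0, and 3 had an unadjusted p under 0.05 in edgeR. Of 17 glycogen genes, 1 rose and 1 fell. Gbe1, the branching enzyme, stood at 36.0 and 41.2 CPM with sesaminol, against 23.0 and 19.6 CPM in controls (log2 fold change 0.86 ± 0.18, SE; edgeR adjusted p = 0.0249, but 0.112 without control 1 and 0.360 without control 2). Pygm, muscle glycogen phosphorylase, stood at 72.7 and 41.1 CPM with sesaminol, against 190 and 177 CPM in controls (−1.69 ± 0.26; edgeR adjusted p = 0.00635).

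In the pentose phosphate pathway, which branches from glycolysis and yields NADPH and ribose, 2 of 8 genes rose. Pgd, an oxidative step that makes NADPH, stood at 253 and 259 CPM with sesaminol, against 130 and 108 CPM in controls (log2 fold change 1.10 ± 0.18, SE; edgeR adjusted p = 0.00839). Tkt, transketolase, stood at 50.4 and 47.1 CPM with sesaminol, against 31.0 and 25.9 CPM in controls (0.78 ± 0.17; edgeR adjusted p = 0.0313). The groups did not overlap for either gene. Neither was called without control 1 (edgeR adjusted p = 0.0734 for Pgd and 0.144 for Tkt) or control 2 (0.264 and 0.497).

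Among 14 other carbonic anhydrase genes, 13 were tested and 2 rose. Car6, which encodes the secreted form known from saliva, stood at 13.1 and 9.77 CPM with sesaminol, against 1.59 and 1.61 CPM in controls (log2 fold change 2.83 ± 0.35, SE; edgeR adjusted p = 0.00253). Car8, whose product lacks catalytic activity, stood at 15.1 and 16.7 CPM with sesaminol, against 1.79 and 3.51 CPM in controls (2.56 ± 0.34; edgeR adjusted p = 0.00352), and its fold of 5.90 was 8.85 without control 2. Both were low in controls and clearly higher in each sesaminol library. Over the 111 tested genes of all these lists, 16 rose and 5 fell, with a median log2 fold change of 0.17. The shares over all genes tested were 2.72% and 3.24%, and the median was 0.02.

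Overlap with neighbouring genes touched 7 of the 37, in which another gene at the same place held at least 20% of the member's count. Beside Ndrg1, Car9, Ankrd37 and Adm these were Gapdh (Iffo1, 104.6%), Hif1a (antisense Gm15283, 100.7%, and AC124712.1, 81.7%) and Pfkp (Pitrm1, 48.1%). These percentages compare totals. By library, Gm15283 held 3293 and 5075 counts against 3270 and 5036 for Hif1a with sesaminol. In controls it held 1318 and 2271 against 1308 and 2259. The counts of Adm and Gm28863 were likewise close in each library. Iffo1 differed more from Gapdh, with 2770 and 5755 against 5146 and 5172 with sesaminol, and 3958 and 5110 against 3032 and 3472 in controls. Whether the same reads were counted for both genes of a pair was not tested. Of the 30 genes without such a neighbour, 9 rose and 1 fell, with a median log2 fold change of 0.62.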

How the data were processed

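Polyadenylated RNA of 2 sesaminol and 2 control libraries was measured. The authors deposited raw read counts per gene, not normalized. Per the submitters' processing notes, FastQC, MultiQC, fastp, Picard, featureCounts and edgeR were used with GRCm38. In the sources used here the aligner, strand setting and handling of multi-mapping reads are not given. Even values made up 75.8% to 79.6% of the values from 1 to 12, as when both reads of a pair are counted, so depth may be overstated.

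Genes were filtered with filterByExpr (minimum count 10, minimum total 15), scaled by TMM and tested with edgeR 4.0.16 in R 4.3.3 (glmQLFit, glmQLFTest, all 4 libraries, no covariate, two-sided, Benjamini-Hochberg adjustment, threshold 0.05). The standard error is the log2 fold change divided by the square root of F. CPM uses TMM effective library sizes, and 3 counts equal 0.201 and 0.112 CPM in sesaminol 1 and 2 and 0.298 and 0.219 CPM in control 1 and 2. Exons and positions come from GENCODE release M21 (52489 of 52636 identifiers matched) and promoters from RefSeq. Only the main edgeR fit was tested on simulated data, which were made with the same dispersion for every gene. Alternatives were other scalings and filters, DESeq2 1.42.0, limma-voom (limma 3.58.1), halved counts, a replicate block and leaving out each library, and summing of near-identical copies was added after the data were seen.

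The members, lists and naming rule were chosen with earlier results of these data known. All members are named, with per-library values for those that passed, the highest of each role group, Hif1a, Epas1, Egln1 and Egln3, and some others chosen after their values were seen. From each further list up to 4 called genes are named, and others named from these lists were chosen after their values were seen. For the figures, Python 3.11.15 and matplotlib 3.10.9 were used.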

Additional observations from a re-analysis of the deposited data

How the results depend on the processing

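Of the 13 called members, 140 of 143 comparisons over 11 settings that kept all libraries held direction and call, and 3 kept only the direction (Aldoc and Higd1a by limma-voom, Car12 with library size alone). The 1131 calls over all genes became 1913 without the filter, and 452 to 4642 when a library was left out. Members called higher ranged from 3 to 28 with a library left out, and members called lower from 0 to 2, with 0 also for library size alone. Without the filter, by DESeq2 and by limma-voom 18, 15 and 10 members rose. The 21 calls in the further lists ranged from 8 to 47 with a library left out. With ACGTG alone 64.7% of the 34 member genes with an entry held the letters in a promoter window. The mean Eno3 share of enolase with sesaminol, 62.4%, was 42.9% by longest transcript and 36.2% with copies summed.

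With the replicate number as a block, 1875 genes were called, 18 members rose and 1 fell. Over all genes same-numbered libraries did not deviate together (correlation of deviations −0.01), and the libraries were taken to share only a number. Among the 15 glycolytic enzymes, 14 were higher in library 1 than in library 2 in both groups, as were 25 of the 37 members.

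Some members that did not pass changed direction. Aldoa was 0.045 with library size alone and 0.024 without the filter, and Egln3 was −0.011 with upper quartile scaling and −0.011 by limma-voom (log2 fold changes). With a library left out the log2 fold change ran from −0.10 to 0.40 for Pfkp, from −0.35 to 0.26 for Aldoa, from −0.30 to 0.44 for Tpi1, from −0.57 to 0.32 for Gapdh, from −0.13 to 0.47 for Pgk1, from −0.20 to 0.51 for Ldha, from −0.34 to 0.56 for Pfkfb4, from −0.66 to 0.79 for Epas1, from −0.22 to 0.18 for Egln3, from −0.12 to 0.29 for Vegfa and from −0.034 to 0.34 for Plod2. Leaving out a library leaves fewer samples to the fit; the cause of the other changes was not tested. Counts of 6 to 36 for Epas1 and 12 to 90 for Car12 limit both.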
